A study of Heliocidaris erythrogramma with 5 samples.

Results

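Cells of larvae of the sea urchin *Heliocidaris erythrogramma* that carried a transcript of *Th* or *Otp* were examined in single-cell RNA-seq counts. *Th* encodes tyrosine hydroxylase, the enzyme that opens the synthesis of dopamine and noradrenaline, and *Otp* encodes the homeodomain factor Orthopedia. A cell was a member when it had at least 1 unique molecular identifier (UMI, a counted transcript molecule) of *Th* or *Otp* and none of *Tph* or *Sert*, which mark serotonergic neurons. Of 26740 kept cells, 157 met this rule. It used the measured counts of these 4 genes, so their levels are given as a description and were not tested.

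In animals, catecholamine neurons turn tyrosine into dopamine with tyrosine hydroxylase and a decarboxylase, and dopamine β-hydroxylase (*Dbh*) carries dopamine on to noradrenaline. A vesicular monoamine transporter (*Slc18a2*) loads these amines into vesicles, whereas acetylcholine is made by choline acetyltransferase (*Chat*), loaded by *Vacht* and resupplied with choline by *Slc5a7*. In sea urchin larvae, neurons lie along the ciliary band, at the apical organ and below the mouth, and the ciliary band is the row of ciliated cells with which larvae swim.

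The study dissociated whole larvae, which in this species develop without feeding, fixed the cells in methanol and made 1 droplet library for each age. The ages were 36, 42, 48, 56 and 60 hours post-fertilization (hpf), and the library labelled 56 hpf carries 54 hpf in its file name. The labels name no mutation, strain or treatment, and the cells of an age were sequenced as 1 suspension in which single larvae cannot be told apart. Since each age had 1 library, age and library cannot be told apart, and libraries served as the replicates of every comparison between cell groups.

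The libraries held 5314, 4268, 4080, 4106 and 8972 kept cells in order of age, each cell with more than 200 and fewer than 4000 genes and fewer than 10000 UMIs. Median UMIs per member were 1379, 3500, 1724.5, 1378 and 1656, against 1310, 1631, 1118, 811 and 1017 in the other cells, so members were the deeper cells in all 5 libraries. Of 26669 barcodes, 71 occurred in more than 1 library, and 0 of these belonged to members. Doublets were not removed.

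Members numbered 24, 15, 16, 21 and 81 in order of age. These were 0.452% (95% exact binomial interval 0.290 to 0.671), 0.352% (0.197 to 0.579), 0.392% (0.224 to 0.636), 0.511% (0.317 to 0.781) and 0.903% (0.718 to 1.12) of the kept cells. The share was highest at 60 hpf, where its interval overlapped only that of the 56 hpf library. After thinning to 500 UMIs per cell, for which 11 cells of the 36 hpf library and 509 of the 56 hpf library were too shallow, the shares were 0.226%, 0.141%, 0.245%, 0.334% and 0.524%. Intervals cover counting error only, and the share was not tested between ages.

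Among the 157 members, 50 had UMIs of both genes, 26 of *Th* alone and 81 of *Otp* alone. Cells with both numbered 5, 3, 6, 5 and 31 in order of age, those with *Th* alone 3, 1, 1, 7 and 14, and those with *Otp* alone 16, 11, 9, 9 and 36. Double-positive cells made up the larger part of *Th* detection, with 199 of the 249 *Th* UMIs found in members. They held 247 of the 476 *Otp* UMIs.

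**Figure D1:**
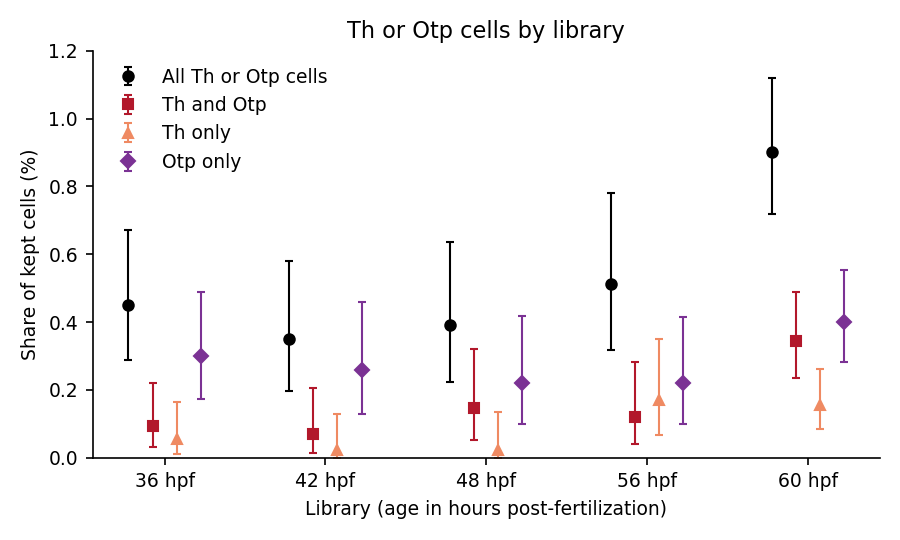
Share of kept cells (%, y axis) that carried *Th* or *Otp* UMIs in each of the 5 libraries (x axis), for all 157 members and for cells with both genes, *Th* only or *Otp* only. Bars are 95% exact binomial intervals, and the 60 hpf library had the highest share of all members, 0.903%.

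The summed level of *Th* in members was 552, 207, 1562, 1448 and 737 CPM (counts scaled to a group's total in a library) in order of age. *Otp* stood at 1876, 1469, 2506, 1389 and 1232 CPM. Single members held up to 13 *Th* UMIs and up to 20 *Otp* UMIs. Both genes had their highest level at 48 hpf, in 16 cells.

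Pigment cells, gated on at least 3 UMIs of the polyketide synthase *Pks1*, should lack both genes, and 0 of 106 had a UMI of either, which allows a share of cells with a UMI of up to 2.83%. Their median depth was 1586.5 UMIs, against 1656 in members. Of the remaining cells, 175 of 26634 (0.657%) had a *Th* or *Otp* UMI, which is below that limit, so pigment cells were too few to measure the background of the gate.

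At the threshold of the rule, 66 members had 1 gate UMI, 14 had 2 and 77 had 3 or more. A UMI of the neural markers *Secrtag* or *Syt4* was found in 45.5% (33.1 to 58.2) of those with 1, in 92.9% (66.1 to 99.8) of those with 2 and in 94.8% (87.2 to 98.6) of those with 3 or more. *Vacht* was found in 16.7%, 42.9% and 61.0% of these cells. Members with a single gate UMI carried these markers less often, which is a description and was not tested.

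The label of these cells as neurons was set against *Secrtag*, a secretagogin-type calcium sensor, and *Syt4*, a synaptotagmin of vesicle release, neither of which the rule used. After thinning to 500 UMIs, 62.5%, 53.3%, 62.5%, 60.0% and 60.5% of members had a UMI of either gene in order of age, against 1.29%, 1.81%, 3.77%, 6.60% and 5.71% of the other cells. The mean difference over the 5 libraries was 55.9 percentage points ± 3.97 (SD), with the members higher in each. An exact two-sided sign-flip permutation test gave p = 0.063, the smallest value that 5 libraries allow.

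The label held best for the double-positive cells. Without thinning, 98.0% of the 50 cells with both genes had a neural marker UMI, against 53.9% of those with *Th* only, 65.4% of those with *Otp* only and 5.99% of the other cells. After thinning, the same shares were 92.0%, 34.6% and 48.8% in the 3 strata. The third neural marker of the study, *CalmL1*, has several copies that together were detected in nearly all cells, so it did not separate neurons.

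Markers of other cell types were low or mixed in members. The skeletogenic markers *alx1* and *sm50* and the coelomic marker *foxy* had no UMI in members, and both serotonergic markers were at 0 by the rule. The 4 pigment markers summed to 265 CPM in members against 971 CPM in the other cells. In the cells with *Th* only, the 4 blastocoelar markers stood at 1150 CPM, against 473 CPM in the other cells, and 42 of their 69 UMIs were *Astacin4*. The part of these cells in any result below was not tested.

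Some genes of catecholamine and acetylcholine handling were among the largest differences between members and the remaining cells of the same libraries. *Dbh* was close to exclusive to members, with 75 UMIs in 21 of them and 2 UMIs in the 26583 other cells. *Vacht*, the vesicular acetylcholine transporter, was higher by 6.18 on the log2 scale, and *Gpr133_2*, an adhesion receptor gene, was higher in all 5 libraries as well. UMIs were summed per library and cell group and fitted across all features by the quasi-likelihood test of edgeR with the library as a block. A feature was called at a Benjamini-Hochberg adjusted p under 0.05 and at least a 2-fold difference.

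Of 14244 features tested, 514 (3.61%) were called higher in members and 83 (0.583%) lower, 597 (4.19%) in all. Of the higher ones, 286 were above the other cells in all 5 libraries. With median-of-ratios scaling 377 were higher and 265 lower, and with scaling factors taken over all features 316 were higher and 617 lower. The median log2 difference of all features was −0.002 here, −0.31 with the first and −0.61 with the second of these scalings.

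*Dbh* stood at 66.2, 476, 399.5, 59.1 and 217.4 CPM in members in order of age, against 0 in the other cells of 4 libraries and 0.481 CPM at 56 hpf. Every member value lay above every other value. The pooled level was 4490 times that of the other cells, with a counting interval of 1200 to 37800 that is wide because of the 2 UMIs (adjusted p = 1.5e-88, edgeR).

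*Slc18a2* stood at 88.3, 310.4, 326.9, 118.2 and 132.9 CPM in members, against 2.39, 1.86, 3.35, 1.92 and 5.93 CPM in the other cells. The groups did not overlap, and the log2 difference was 5.83 (SE 0.42; adjusted p = 6.2e-42, edgeR). *Slc29a4_1*, named for the plasma membrane monoamine transporter of mammals, stood at 309.0, 227.6, 217.9, 1241 and 549.5 CPM against 5.16, 7.92, 7.22, 9.62 and 7.27 CPM, a log2 difference of 5.96 (SE 0.33).

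*Gch1_1*, for the enzyme that opens synthesis of the hydroxylases' cofactor, was higher by a smaller margin, 1.47 (SE 0.27). It had 441.5, 289.7, 508.4, 325.1 and 295.9 CPM in members against 122.0, 113.7, 134.9, 178.4 and 130.3 CPM in the other cells. *Drd2L_12*, a dopamine receptor-like gene, differed by 5.14 (SE 0.40) and was higher in all 5 libraries. *Drd1L_1* differed by 1.31 (SE 0.40) and was higher in 4, with an adjusted p of 0.028 in edgeR that was lost without the 56 hpf or the 60 hpf library.

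Of the catecholamine list, these 5 of 28 tested features (17.9%, against 3.61% of all features) were called higher and 0 lower. The median log2 difference of the list was −0.71, or −0.20 with the 4 features at 0 in members set to their bounds, against −0.002 over all features. With median-of-ratios scaling, 4 of the list were higher and 3 lower. The decarboxylase step was barely detected. *Aadc* had 1 UMI in 1 of 157 members and *Ddc_1* had none, which allows up to 9.36 CPM.

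*Vacht* had 419.4, 393.2, 653.7, 1094 and 1147 CPM in members, against 2.90, 8.15, 4.58, 23.1 and 20.3 CPM in the other cells. Member values lay above every value of the other cells, and levels were highest in the 56 and 60 hpf libraries in both groups (log2 difference 6.18, SE 0.29; adjusted p = 5.43e-97, edgeR). *Slc5a7_1*, a choline transporter gene, was higher by 2.08 (SE 0.27), with 331.1, 351.8, 145.3, 1035 and 573.7 CPM in members against 98.2, 94.7, 104.1, 125.7 and 128.6 CPM. *Chat* was too sparse for the test, with 41 UMIs in all kept cells. Of these, 20 lay in 14 members.

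Of 31 acetylcholine features tested, 4 (12.9%, against 3.61% of all features) were called higher and 0 lower, with a list median of 0.23. Besides *Vacht* and *Slc5a7_1* these were *AchE*, for acetylcholinesterase, with 11 UMIs in 9 members, and *Chrm3*, for a muscarinic receptor. The *Chrm3* call rested on 47 UMIs in 2 members, 44 of them in a single cell at 60 hpf, and it was lost without that library. The nicotinic receptor subunit gene *Nacha4*, which the list did not hold, was higher by 5.69 (SE 0.45), with 44.2, 82.8, 109.0, 354.7 and 157.0 CPM in members against 0, 2.45, 3.52, 5.77 and 3.17 CPM. Of 4 serotonin and 3 glutamate and GABA features tested, 0 were called by edgeR or DESeq2, and 0 had an unadjusted p under 0.05. In edgeR, 3 catecholamine and 2 acetylcholine features were lower at an unadjusted p under 0.05.

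**Figure D2:**
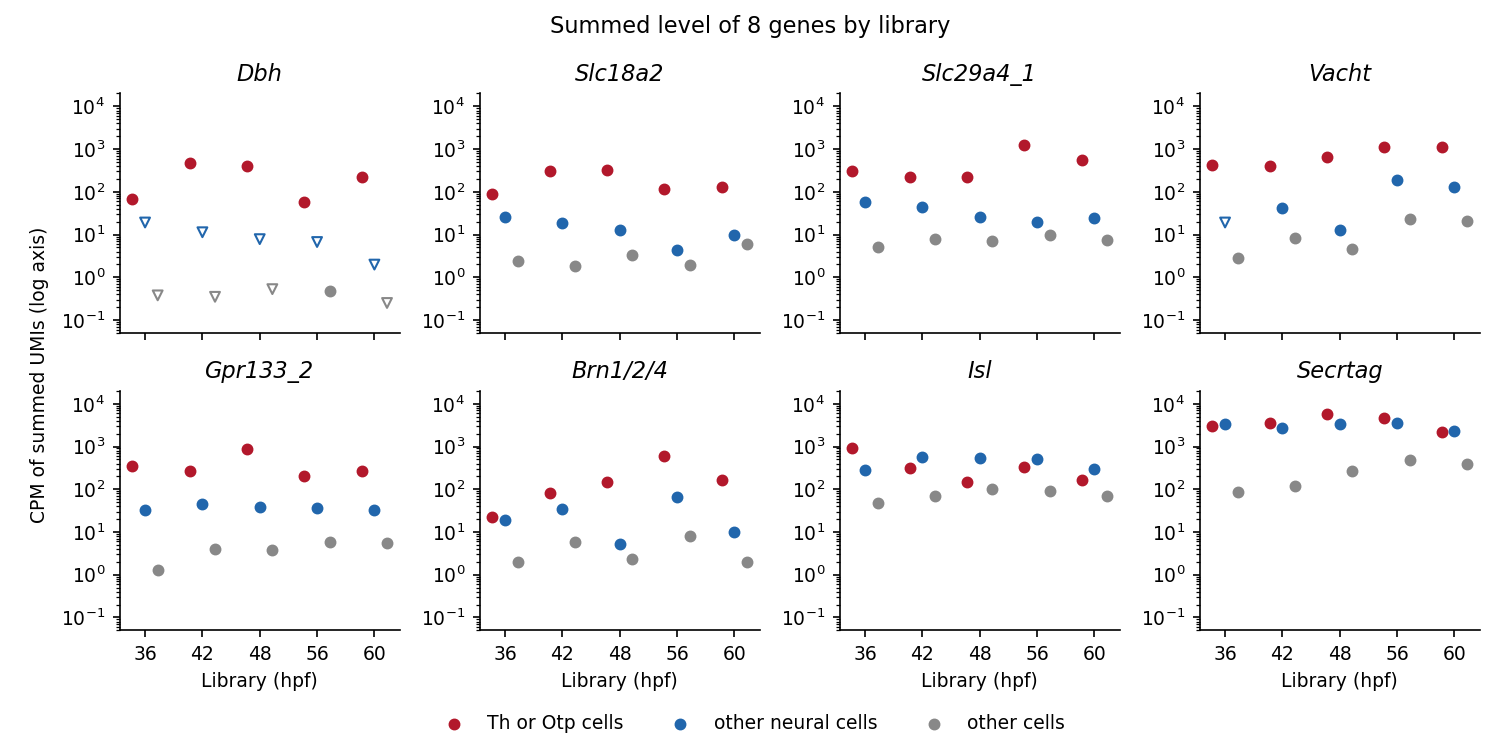
Summed level in CPM (y axis, log scale) of 8 genes in each library (x axis, hpf) for *Th* or *Otp* cells, other neural cells and other cells. Open triangles mark groups without a UMI, drawn at the level of 3 counts. *Dbh*, *Slc18a2*, *Slc29a4_1*, *Vacht* and *Gpr133_2* were highest in *Th* or *Otp* cells in all 5 libraries, whereas *Secrtag*, by which other neural cells were gated, ran close to their level.

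The genes with the largest differences also included several without a transmitter role. *Gpr133_2* had 353.2, 269.0, 871.6, 206.9 and 265.7 CPM in members, against 1.26, 4.08, 3.87, 5.77 and 5.60 CPM (log2 difference 6.50, SE 0.35; adjusted p = 4.69e-75, edgeR). *Wdr86*, for a WD-repeat protein, had 1545, 1904, 7263, 2719 and 2814 CPM against 14.9, 13.2, 34.3, 82.9 and 86.2 CPM (6.35, SE 0.22). *Vmd2l*, a bestrophin-type channel gene, had 132.4, 248.3, 254.2, 620.7 and 567.6 CPM against 2.14, 3.38, 7.04, 6.73 and 8.02 CPM (6.09, SE 0.36). Neither group of values overlapped the other for any of the 3 genes. *Z193*, *Ttrspn_18* and *Unk_26* completed the 12 named genes with differences of 6.14, 6.08 and 5.99.

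Vesicle and secretion genes were the list with the highest share of calls. Of 25 tested, 15 (60%) were higher in members and 0 lower, against 3.61% of all features, and the list median was 1.60. They included the fusion proteins *Stx1* (2.05, SE 0.23), *SNAP25* (1.47, SE 0.21) and *Vamp1* (1.60, SE 0.20), the vesicle GTPase *Rab3* (2.50, SE 0.24), and the peptide-processing enzymes *Pcsk2* (3.54, SE 0.30) and *Pam_2* (3.58, SE 0.34). All 6 were higher in 5 of 5 libraries. Over the 3 scalings tried as alternatives, 11 to 14 of the 25 were called higher and 0 lower.

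*Rab3* illustrates the size of these differences, with 816.7, 600.2, 835.3, 1035 and 531.4 CPM in members against 145.2, 123.0, 121.0, 154.8 and 125.1 CPM in the other cells. *Secrtag* stood at 3024, 3539, 5920, 4729 and 2222 CPM against 86.1, 116.4, 273.8, 485.1 and 393.2 CPM, a log2 difference of 4.1 (SE 0.19). *Syt5* and *Syt12*, further synaptotagmins, differed by 4.11 (SE 0.37) and 3.98 (SE 0.40). The call of *Unc13*, a priming factor of release, was lost under most alternatives.

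Among neural regulators, 6 of 36 features (16.7%, against 3.61% of all features) were higher and 2 lower. *Brn1/2/4*, a POU-domain factor of neurons, had 22.1, 82.8, 145.3, 591.2 and 169.1 CPM in members against 2.02, 5.71, 2.29, 7.93 and 2.01 CPM (log2 difference 5.61, SE 0.42; adjusted p = 5.5e-38, edgeR). The LIM-homeodomain gene *Isl* had 905.0, 310.4, 145.3, 325.1 and 169.1 CPM against 48.9, 69.3, 102.8, 92.6 and 70.6 CPM (2.19, SE 0.30). *Insm*, a zinc finger factor, differed by 4.20 (SE 0.54) and was higher in 4 libraries.

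*Fez2* differed by 2.98 (SE 0.29) and was higher in all 5 libraries. Its symbol is that of an axon growth adaptor in mammals, not of a transcription factor. *Delta*, a Notch ligand, differed by 1.84 (SE 0.59) and was called under 4 of 17 alternatives. The *Scratch* call, a zinc finger gene, rested on 35 UMIs in 5 members, 27 of them in 1 cell, and was lost without the 60 hpf library. *Hbn* and *HesD*, homeobox and bHLH genes of the ectoderm, were lower by −1.10 (SE 0.30) and −1.04 (SE 0.20), and both calls were lost without the 42 hpf or the 48 hpf library.

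*Onecut*, a ciliary band factor and a marker the study lists for ciliary band neurons, was not called against all other cells. It had 286.9, 269.0, 472.1, 206.9 and 404.6 CPM in members and 175.1, 170.2, 231.9, 273.1 and 243.6 CPM in the other cells. The difference was 0.64 (SE 0.27) with an adjusted p of 0.212 in edgeR. Members were below the other cells at 56 hpf, and over all libraries the groups overlapped. The LIM-homeodomain gene *Lmx1*, added after its values were seen, had 16 UMIs in 13 members and 76 UMIs in 64 other cells (4.89, SE 0.57).

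Ion channels gave 15 higher calls among 67 features (22.4%, against 3.61% of all features) and 1 lower. Against other neural cells, a comparison given below, 4 of the 67 were higher. Potassium channels made up 9 of them, with *Kcnh8* (3.57, SE 0.28), *Kcnk18L1* (3.92, SE 0.44) and *Kcna* among those called. The calcium channel gene *Cacna1h* had 220.7, 186.3, 181.6, 236.5 and 229.5 CPM in members, against 18.8, 27.8, 43.8, 58.7 and 56.1 CPM (2.47, SE 0.33). Of 38 neuropeptide and peptide receptor features, 3 (7.89%, against 3.61% of all features) were higher. *Salmfap*, the precursor of the SALMFamide peptides of echinoderms, differed by 2.60 (SE 0.30), and the somatostatin receptor-like *Sstr5L* by 5.40 (SE 0.53) with 22 UMIs in 9 members.

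Ciliary axoneme genes differed little, with 2 of 56 called higher (3.57%, against 3.61% of all features) and 0 lower. Of 14 cell division features, 1 was called lower, against 0.583% of all features, and the list median was −0.69. At an unadjusted p under 0.05, 7 of the 14 were lower and 0 higher in edgeR. Over all 14244 features, 1804 had such a p in either direction. The called feature was *Mcm2_1*, a replication helicase subunit, at 0 UMIs in members and at least 3.11-fold lower, a call lost without the 36, 42 or 60 hpf library.

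Genes lower in members included markers of ectoderm and pigment cells. *Mif4*, a pigment cell marker of the study, had 22.1, 41.4, 36.3, 768.5 and 241.5 CPM in members against 1541, 594.8, 1026, 982.3 and 497.6 CPM in the other cells (log2 difference −2.07, SE 0.25). *Ars*, for the ectodermal arylsulfatase, had 5187, 2483, 3850, 4138 and 5821 CPM against 9601, 12870, 14560, 8608 and 10200 CPM (−1.35, SE 0.13). *CycD*, for cyclin D, differed by −1.61 (SE 0.30), and the ectoderm regulators *FoxABL* and *Msx* by −1.58 (SE 0.37) and −1.41 (SE 0.43).

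Several lower genes had no UMI in members, so their differences are bounds against 3 counts. 1 feature of *Hypp_42* was at least 6.3-fold lower, with 2267 UMIs in the other cells, nearly all in the 56 and 60 hpf libraries. *TfIIIa*, *Grem* and *Ccs* were at least 2.16-fold, 2.09-fold and 2.08-fold lower. The calls of *TfIIIa*, *Grem* and *Ccs* were lost when any single library was left out.

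To ask what set the members apart from other neural cells, both sides were limited to cells with a UMI of *Secrtag* or *Syt4*. This left 116 members and 1466 other neural cells that had no UMI of the 4 gate genes. Of 14223 features, 151 (1.06%) were higher and 61 (0.429%) lower in the neural members, 212 (1.49%) in all, with a median of −0.14 over all features. Median-of-ratios scaling gave 134 higher and 92 lower, and factors over all features 76 and 211.

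*Dbh* had 75 UMIs in neural members and 0 in the other neural cells, at least 282-fold higher. *Slc18a2* had 95.5, 402.4, 437.2, 152.4 and 166.6 CPM in neural members against 25.6, 18.9, 13.02, 4.46 and 9.92 CPM in other neural cells (log2 difference 4.12, SE 0.43; adjusted p = 5.31e-19, edgeR). *Slc29a4_1* differed by 4.29 (SE 0.35) and *Drd2L_12* by 3.35 (SE 0.39), both higher in 5 of 5 libraries.

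*Vacht* had 604.6, 546.1, 825.9, 1410 and 1431 CPM in neural members, against 0, 41.6, 13.02, 187.4 and 131.6 CPM in other neural cells (3.88, SE 0.30). *Gpr133_2* had 509.1, 373.6, 1166, 266.7 and 333.2 CPM against 31.9, 45.3, 39.1, 35.7 and 32.4 CPM (3.61, SE 0.34). The groups did not overlap for either gene. *Brn1/2/4* differed by 3.49 (SE 0.41), *Slc5a7_1* by 2.32 and *Fez2* by 1.59 (SE 0.30), each higher in 5 of 5 libraries. *Pi16*, *PkdL*, *Wdr86* and *Cub/Ldla/Gpcr* were further named genes, with 4.76, 4.53, 4.38 and 4.16.

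Of 23 vesicle and secretion features tested here, 3 (13%, against 1.06% of all features) were higher in the neural members. They were *Rab3* (1.46, SE 0.24), *Stx1* (1.22, SE 0.24) and *Vamp1*. The *Rab3* and *Stx1* calls were lost with scaling factors over all features. Of 67 ion channel features, 4 (5.97%, against 1.06% of all features) were higher and 1 lower. *Kcnh8*, *Kcna* and *Cacna1h* were not called in this comparison.

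Of 36 neural regulators tested, 3 were higher in neural members and 6 lower (*Ebf*, *Hmx*, *Lim1*, *NeuroD*, *Phox2* and *Six3*), with 27 not called and a list median of −0.80. Over all features 0.429% were lower, and with scaling factors over all features 15 of the 36 were. *Six3*, of the animal pole ectoderm, had 954.6, 488.6, 97.2, 152.4 and 204.5 CPM in neural members, against 2139, 1700, 1737, 1073 and 765.0 CPM in other neural cells (log2 difference −2.06, SE 0.24; adjusted p = 3.57e-15, edgeR). *Lim1* had 254.6, 143.7, 48.6, 76.2 and 121.2 CPM against 747.2, 581.8, 450.5, 334.7 and 283.0 CPM (−1.77, SE 0.33). Neural members were lower in each library for both genes, and over all libraries the groups overlapped for *Six3* and not for *Lim1*.

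*Hmx* and *NeuroD*, a homeobox and a bHLH gene of developing neurons, had 8 UMIs each in neural members, against 662 and 532 UMIs in other neural cells (−3.12, SE 0.46, and −2.68, SE 0.48). All 8 *NeuroD* UMIs came from the 36 hpf library. *Phox2*, a marker of adult gut neurons in the study, had 1 UMI in neural members at 36 hpf and 565 UMIs in other neural cells, all from 48 hpf on (−5.00, SE 0.85). *Bursicona*, for a subunit of the hormone bursicon, also had 1 UMI against 363 (−4.63, SE 0.90). *Adra1aL_4*, an adrenergic receptor-like gene, had none and was at least 7.41-fold lower.

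Members differed among themselves, and not by *Th* alone. In double-positive, *Th*-only and *Otp*-only cells, *Gpr133_2* had 97, 2 and 5 UMIs and *Dbh* had 66, 0 and 9. *Isl* had 1, 0 and 98. The 76 cells with *Th* UMIs were compared with the 81 cells with *Otp* only. Only the 60 hpf library had 10 cells on both sides, so libraries with at least 4 cells on both sides were used, a limit chosen after the cell numbers were seen. Of 12121 features, 22 (0.182%) were higher and 9 (0.0743%) lower in the *Th* cells, 31 (0.256%) in all. The Wald test of DESeq2 called 7.

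*Gpr133_2* stood at 856.2, 990.9, 1945, 295.9 and 417.7 CPM in the *Th* cells, against 0 in the *Otp*-only cells of 4 libraries and 69.2 CPM at 60 hpf (log2 difference 4.47, SE 0.63; adjusted p = 5.95e-09, edgeR). *Vacht* had 749.2, 762.2, 1378, 1437 and 1649 CPM against 187.8, 255.7, 65.8, 294.9 and 498.4 CPM (2.02, SE 0.42). *Dbh* had 66 UMIs against 9 (3.22, SE 0.65), and its call was lost without the 42 hpf library and in DESeq2. In these 3 genes the *Th* cells were higher in every library.

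*Drd2L_12* (3.42, SE 0.69), *Wdr86* (3.52, SE 0.31), *RabO1* (2.21, SE 0.36) and *Salmfap* (2.43, SE 0.54) were also higher in the *Th* cells of 5 of 5 libraries. *Slc18a2* did not pass, with 41 UMIs against 13, a difference of 1.68 (SE 0.63) and an adjusted p of 0.727 in edgeR.

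*Isl* ran the other way. It had 1 UMI in the *Th* cells and 98 in the *Otp*-only cells, where it stood at 1540, 426.1, 263.3, 1081 and 373.8 CPM in order of age. The ratio was 0.0101, with a counting interval of 0.000254 to 0.0577 (adjusted p = 3.16e-10, edgeR), and the call was kept under all 12 alternatives. *SoxC*, a factor of newly formed neurons, had 7 UMIs against 101 (−3.64, SE 0.65). *Smadip*, a zinc finger gene, had 0 UMIs against 28 and was at least 9.41-fold lower, and its call was lost without the 36 or the 60 hpf library.

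In single cells, *Vacht*, *Dbh* and *Slc18a2* were found in a larger share of the double-positive cells than of the other members. *Vacht* had a UMI in 84.0% of the 50 double-positive cells, against 23.1% of cells with *Th* only, 19.8% of cells with *Otp* only, 8.39% of other neural cells and 0.943% of pigment cells. *Dbh* had a UMI in 38.0% of double-positive cells, in none of the 26 with *Th* only and in 2.47% of those with *Otp* only. *Slc18a2* was found in 36.0%, 15.4% and 12.4% of the 3 strata and in 1.98% of other neural cells.

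*Isl* was found in 29.6% of *Otp*-only cells, and *SoxC* in 34.6%, against 2% and 4% of double-positive cells. Other neural cells had 20.7% and 26.7%. *Six3* had a UMI in 6% of double-positive cells, in 42.3% of cells with *Th* only and in 42.2% of other neural cells. After thinning to 500 UMIs, *Vacht* stood at 54%, 11.5% and 7.50% of double-positive, *Th*-only and *Otp*-only cells, and *Isl* at 0%, 0% and 18.8%. Median depths of these strata were 1732, 1938.5 and 1427 UMIs.

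**Figure D3:**
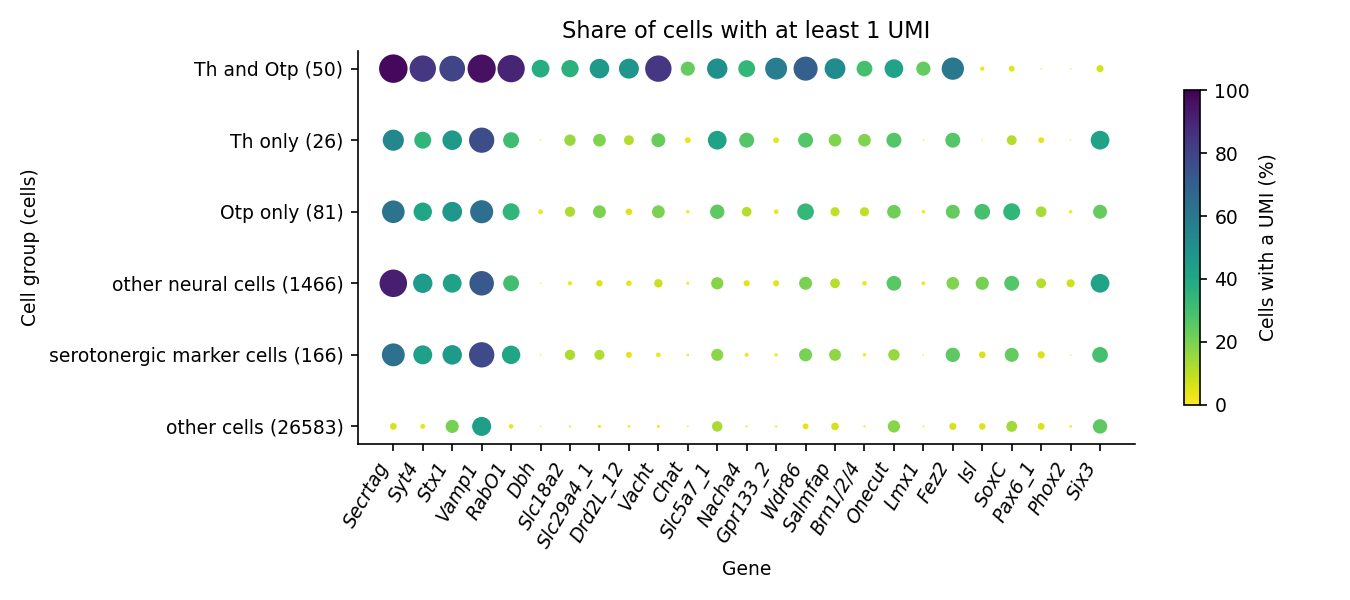
Share of cells with at least 1 UMI (colour and point size, %) of each gene (x axis) in 6 cell groups (y axis, with the number of cells). *Vacht*, *Dbh*, *Gpr133_2* and *Slc29a4_1* had their highest share in cells with both *Th* and *Otp*, and *Isl* and *SoxC* in cells with *Otp* only.

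Within the 50 double-positive cells, *Dbh* and *Brn1/2/4* marked largely separate cells. Of these cells, 18 had *Dbh* without *Brn1/2/4*, 14 had *Brn1/2/4* without *Dbh*, 1 had both and 17 had neither. The *Dbh* cells numbered 2, 2, 5, 1 and 8 in order of age, and the *Brn1/2/4* cells 1, 1, 1, 3 and 8, so each kind was present in all 5 libraries. The split was chosen after its values were seen, so no test was made. The study lists *dbh* and *gpr133-2* for ciliary band neurons and *brn1/2/4* and *chat* for postoral neurons, with *otp* and *th* for both. The POU-domain gene of this list was also grouped by the study with *otp* and *onecut*, for high expression in both neuron types. Its listing for postoral neurons is therefore not exclusive. The study took its neural markers from published work and used them to name cell clusters that include these libraries. The other pairs of markers across these neuron types shared more cells. *Chat* and *Gpr133_2* shared 7 cells, 5 had *Chat* only, 22 had *Gpr133_2* only and 16 had neither. *Dbh* and *Chat* shared 4, with 15 for *Dbh* only, 8 for *Chat* only and 23 for neither, so *Chat* did not follow the split. *Gpr133_2* and *Brn1/2/4* shared 5, with 24 for *Gpr133_2* only and 10 for *Brn1/2/4* only.

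*Gpr133_2* had a UMI in 16 of the 18 *Dbh* cells and in 4 of the 14 *Brn1/2/4* cells. *Drd2L_12* had one in 15 against 2 cells, *Cub/Ldla/Gpcr* in 15 against 1, and *Wdr86* in 17 against 4. *Slc18a2* was found in 10 *Dbh* cells and 4 *Brn1/2/4* cells. The *Dbh* cells held the monoamine vesicle transporter and a dopamine receptor-like gene in more cells than the *Brn1/2/4* cells did.

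The *Brn1/2/4* cells held *Slc29a4_1* in 12 of 14, against 4 of 18 *Dbh* cells. *Vmd2l* was found in 12 against 1 cell, *Slc5a7_1* in 11 against 5, *Nacha4* in 10 against 3 and *Drd1L_1* in 9 against 1. *Chat* had a UMI in 6 *Brn1/2/4* cells and 3 *Dbh* cells. *Vacht* did not follow the split, with a UMI in 14 of 14 *Brn1/2/4* cells and in 15 of 18 *Dbh* cells, and *Secrtag* was present in 14 of 14 and 18 of 18. The 17 double-positive cells with neither *Dbh* nor *Brn1/2/4* held genes of both kinds. *Wdr86* had a UMI in 13 of them, *Drd2L_12* in 6, *Slc29a4_1* in 6 and *Vmd2l* in 5.

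**Figure D4:**
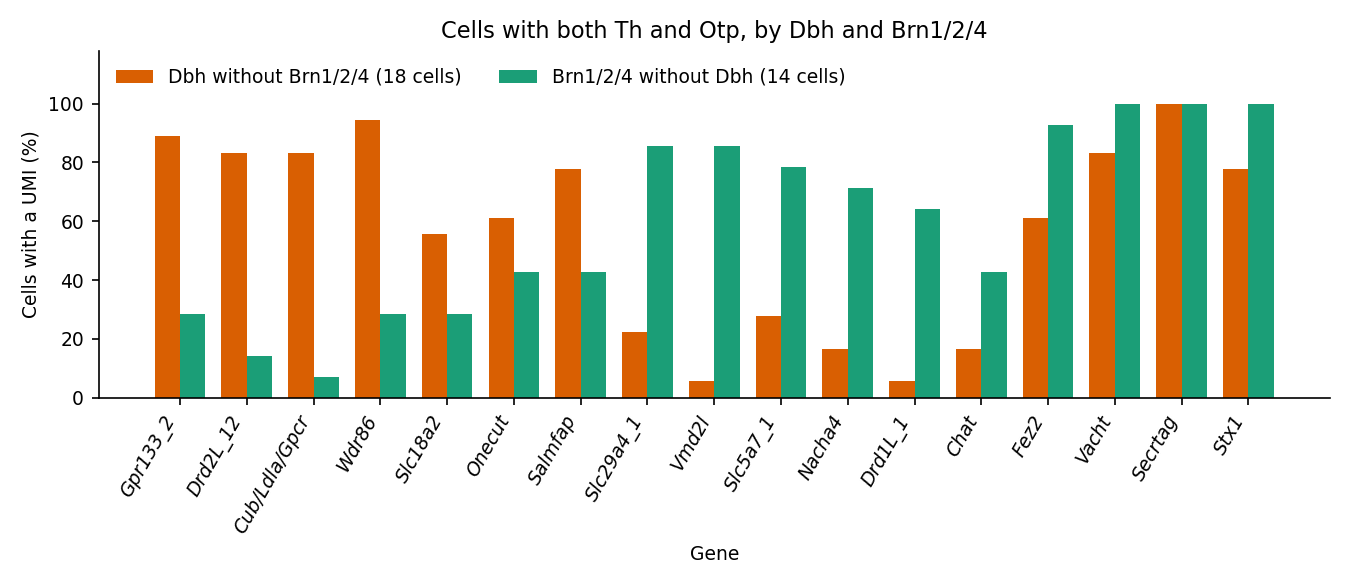
Share of cells with a UMI (%, y axis) of 17 genes (x axis) in double-positive cells with *Dbh* without *Brn1/2/4* (18 cells) and with *Brn1/2/4* without *Dbh* (14 cells). *Gpr133_2*, *Drd2L_12* and *Wdr86* were found mainly in the first, and *Slc29a4_1*, *Vmd2l* and *Drd1L_1* mainly in the second, while *Vacht* and *Secrtag* were found in both.

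Serotonergic marker cells, 166 cells with a UMI of *Tph* or *Sert* and none of *Th* or *Otp*, were the nearest group defined by a transmitter. Of 13445 features, 88 (0.655%) were higher and 125 (0.93%) lower in members, 213 (1.58%) in all. *Dbh* had 75 UMIs against 0, at least 29.9-fold higher. *Vacht* had 283 UMIs against 7 (log2 difference 5.30, SE 0.46; adjusted p = 9.2e-28, edgeR), and *Slc5a7_1* differed by 2.17 (SE 0.37).

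*Isl* (2.72, SE 0.44) and *Brn1/2/4* (4.47, SE 0.71) were higher in members as well, while *Slc18a2*, which serotonergic neurons also use, had 54 UMIs against 37 and did not pass (1.03, SE 0.43; adjusted p = 0.606, edgeR). *Onecut* was higher by 1.41 (SE 0.38), with its call lost without the 36, 42 or 48 hpf library.

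Lower in members were *FoxD_1*, a forkhead gene, with 3 UMIs against 431, and *Opsin3.1*, a photopigment gene, with 3 against 233. *Nos_1*, for nitric oxide synthase, and *Syt9L_1*, a synaptotagmin, had no UMI in members and were at least 12.2-fold and 22.5-fold lower. *Z133_1*, a Fez-type zinc finger gene of the apical region, had 176.6, 0, 36.3, 29.6 and 12.1 CPM in members against 1089, 872.0, 834.1, 633.4 and 383.3 CPM in serotonergic marker cells (−4.11, SE 0.40). Of 25 vesicle and secretion features, 3 were higher and 3 lower, *Pcsk2* among the latter. Of 27 catecholamine features, 2 were higher and 2 lower, with *Drd1L_1* lower. Of 64 ion channel features, 2 were higher and 2 lower, with *Kcnh8* lower. Over all features, 0.655% were higher and 0.93% lower. *Pcsk2*, *Drd1L_1* and *Kcnh8* had been called higher in members against all other cells.

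With age, few differences between members and other cells moved. Of 14244 features, 15 (0.105%) had a difference that rose with the labelled age at an adjusted p under 0.05 and 26 (0.183%) one that fell, 41 (0.288%) in all. The difference in *Secrtag* fell by 0.11 on the log2 scale per hour (SE 0.02; adjusted p = 2.77e-05, edgeR). The level in members had no steady course, whereas the other cells stood at 86.1 CPM at 36 hpf and at 485.1 CPM at 56 hpf. A UMI of *Secrtag* or *Syt4* was found in 2.042% of other cells at 36 hpf, 8.25% at 56 hpf and 8.975% at 60 hpf. The make-up of the other cells thus differed between ages. No change with age was fitted against other neural cells, so its part in these differences was not tested.

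*CalmL1*, by a single feature of this calmodulin-like gene, had 5055, 3125, 4068, 1153 and 1715 CPM in members, against 192.4, 341.0, 499.8, 381.3 and 470.2 CPM in the other cells. Its difference fell by 0.12 per hour (SE 0.02). *Isl* fell by 0.10 per hour (SE 0.03), with its highest member level, 905.0 CPM, at 36 hpf. *Mif4*, low in members at the first 3 ages, moved the other way, by 0.22 per hour (SE 0.04). It had 70 UMIs in 27 members, with 15 of them in 1 cell, and at 56 hpf 2 *Otp*-only cells held 16. The count of 41 was 10 without the 60 hpf library, 11 without that of 56 hpf and 27 without that of 42 hpf.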

How the data were processed

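The deposited values are raw UMI counts per gene and cell barcode, 1 matrix per library, which the authors made with Cell Ranger 3.1.0 and analysed in Seurat 4.0, as the submitters' processing notes name them. The genome build is not given in the sources used here. Symbols came from the files, with the prefix of the purple sea urchin annotation removed, and copies of a gate gene were pooled. Transcripts of near-identical gene copies can be split between features. The filter on genes and UMIs left 26740 of 26781 barcodes and 38657002 UMIs.

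The members, gene lists and comparisons were chosen with earlier results of these data known. UMIs were summed per library and cell group, in libraries with at least 10 cells of both groups. Sums were tested with edgeR 4.0.16 (R 4.3.3), by quasi-likelihood with the library as a block, in features with at least 50 UMIs over all kept cells, with gate features left out. TMM factors were taken over the 990 features with at least 5000 UMIs, because tests on simulated data showed bias when all features were used. This was chosen after the files were seen. Libraries differ in age and nothing names separate cultures, so p-values measure no spread between cultures. The edgeR error rested mainly on a spread shared over features and on counting. A gene's own spread over these 5 libraries weighed little, so very small p-values do not mean that 5 ratios were that close. CPM is the summed count of a gene scaled to the total of its group in a library. Intervals are at 95%. A fold against a group at 0 was set against 3 counts over the group.

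Alternatives were DESeq2 1.42.0, other scalings, count minimums of 10 and 200 UMIs, cells of 1000 to 4000 UMIs, other gates, all barcodes, cells without shared barcodes, no library term, 54 hpf for the fourth library, and each library left out. Named genes were, per comparison, up to 12 higher and 8 lower called features with a symbol, the same direction in every library and the largest differences, besides members of the lists. Other named genes were chosen after their values were seen. Vacht, Cub/Ldla/Gpcr and RabO1 are printed as the files spell them.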

Additional observations from a re-analysis of the deposited data

Results flagged for a closer look

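For 10 named genes, the difference between *Th* or *Otp* cells and other cells of the same library changed with age at an adjusted p under 0.05 in edgeR's quasi-likelihood test. Values are log2 change of the difference per hour.

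*Mif4* had 0.22 (SE 0.04) and *Cryz_1* had 0.22 (SE 0.05), both lower in members and less so with age. *Cryz_1* had 17 UMIs in members, and its call was lost without the 36, 42, 56 or 60 hpf library. *Btub3*, by 1 of its features, had −0.14 (SE 0.03) and *Neurmdnr* −0.14 (SE 0.03). *Tuba1c_2* had −0.12, *Kcnh8* −0.12, *CalmL1* −0.12, *Pcsk2* −0.11, *Secrtag* −0.11 and *P35L* −0.10, and these were higher in members in all 5 libraries.

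The calls of *Mif4* and *Btub3* were kept under all 12 alternatives. Without the 60 hpf library those of *Neurmdnr*, *Tuba1c_2*, *Kcnh8*, *Pcsk2*, *Secrtag* and *P35L* were lost, and without that of 56 hpf those of *CalmL1*, *Tuba1c_2*, *Kcnh8*, *Pcsk2* and *P35L*. Those of *Kcnh8*, *Pcsk2* and *P35L* were also lost without the 36 hpf library, and with scaling factors over all features, as was that of *Tuba1c_2* with these factors. Other cells rose in *Neurmdnr*, with 419.4, 703.6, 581.1, 206.9 and 326.1 CPM in members in order of age and 21.5, 21.7, 56.5, 73.1 and 105.3 CPM in the other cells. Age and library cannot be told apart, and no change with age was fitted against other neural cells.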

How the results depend on the processing

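Against other cells, the count of 597 was 933 with scaling factors over all features, 397 with DESeq2 and 391 without the library as a replicate block. It was 232 with only the cells that had *Otp* and no *Th* UMI, which left 3 libraries. That set leaves out the double-positive cells, so it is not a gate on 1 gene. Cells with *Th* and no *Otp* UMI could not be fitted, since fewer than 3 libraries had 10 such cells. Against other neural cells, 212 became 90 with DESeq2 and 138 without the 60 hpf library, with a range of 138 to 198 over the libraries left out. *Th* cells against *Otp*-only cells gave 7 in place of 31 with DESeq2 and 21 to 35 with a library left out. The change with age gave 10 to 47 in place of 41 with a library left out, lowest without 60 hpf (10), 56 hpf (11) and 42 hpf (27). Of the features tested between members and serotonergic marker cells, 0.469% were called with DESeq2 in place of 1.58%, and 1.03% to 1.39% with a library left out, lowest without that of 42 hpf (1.03%). Without the library block, calls numbered 191 against other neural cells and 31 between *Th* and *Otp*-only cells, and 1.38% of features against serotonergic marker cells, each within 1.5 times the value with it. The block pairs the sums of 1 library, so it comes from the design.

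The mean difference in neural marker share was 54.6 to 57.0 points with a library left out, 66.3 without thinning and 62.8 at 1000 UMIs. The share of members at 60 hpf exceeded that at 36 hpf by 0.451 points, and by 0.867 points in cells with over 500 genes. Of 1097 values of 84 named genes under the alternatives, 932 kept their call, 165 lost it and 0 changed direction. These genes were chosen for a call, the same direction in every library and a large difference. A reversal was therefore unlikely from the start, and the 0 is no separate support. With 15 to 81 members in a library, 1 UMI is worth 6.04 to 36.3 CPM, so absence of a sparse gene such as *Chat* or *Aadc* was not detectable at this depth. Causes of these shifts were not tested.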

Other observations

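The rule left out 18 cells that had a UMI of *Th* or *Otp* together with one of *Tph* or *Sert*. They numbered 3, 1, 2, 2 and 10 in order of age, and their median depth was 2441 UMIs, above the 1656 of the members. Of these cells, 17 (94.4%, 95% exact interval 72.7 to 99.9) had a UMI of *Secrtag* or *Syt4*. Kept cells held 523 *Otp* UMIs, of which 476 lay in members, and 253 *Th* UMIs, of which 249 lay in members, so *Otp* made up most of the gate UMIs in the cells left out. Whether they are single cells was not tested.

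In the 50 double-positive cells, the markers listed for ciliary band and for postoral neurons were combined into pairs. Of these cells, 23 had *Dbh* or *Gpr133_2* alone and 12 had *Brn1/2/4* or *Chat* alone. Genes of both pairs were found in 8, and 7 had neither. Over all 157 members, 20 had *Dbh* without *Brn1/2/4*, 27 had *Brn1/2/4* without *Dbh*, 1 had both and 109 had neither. *Lmx1* was found in 24.0% of double-positive cells, in 0 of 26 cells with *Th* only, which allows up to 11.5% of cells with a UMI and sets no limit on cells that express it, and in 1.23% of cells with *Otp* only. All 12 double-positive cells with *Lmx1* also had *Vacht*, but so did 30 of those without *Lmx1*, and 8 had neither gene.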
